A study of Mus musculus with 27 samples.

Results

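The desmosome genes described here are 10 mouse genes chosen by name: the plakins Dsp, Ppl and Evpl, the armadillo plaque proteins Jup, Pkp1, Pkp2 and Pkp3, the desmosomal cadherins Dsg2 and Dsc2, and the tetraspan protein Perp. All 10 had a row among the 23295 genes of the expression table for parental cells and among the 24247 genes of the table for shRNA-carrying cells. The cells were NMuMG, an epithelial line from normal mouse mammary gland that undergoes an epithelial-to-mesenchymal transition (EMT) when exposed to the cytokine TGF-β (1 to 5 ng/ml here). RNA-seq was made from parental cells, from cells infected with lentivirus carrying an irrelevant control shRNA and from cells infected with a lamin B1 shRNA (knockdown, KD), each untreated or after 8 or 24 h of TGF-β, in 2 replicates per group. The control arm shares the lentiviral infection with the KD arm and the parental arm does not. The study's methods name puromycin selection of infected cells for other assays, and none is named for these libraries. Lamin B1 ChIP-seq on a euchromatin-enriched fraction and ATAC-seq, which maps accessible DNA, were made from parental cells at the same times with 1 library per time, so their values carry no test.

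Desmosomes are cell-cell junctions that anchor the intermediate filaments of neighbouring epithelial cells to each other. Their cadherins (desmogleins and desmocollins) span the gap between the cells, the armadillo proteins plakoglobin and the plakophilins bind the cadherin tails inside the cell, and the plakin desmoplakin ties this plaque to keratin filaments. In simple epithelia such as the mammary luminal layer the usual cadherin pair is desmoglein 2 with desmocollin 2, and disassembly of these junctions is a known part of EMT.

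Expression was read as FPKM, the number of fragments scaled to transcript length and to the reads mapped in the library, a per-length unit that allows levels of different genes to be set side by side. In untreated parental cells the mean level ran from Jup at 65.5 FPKM through Perp at 53.0, Dsp at 47.6, Ppl at 33.3, Pkp2 at 23.6, Dsg2 at 10.0, Pkp1 at 5.25 and Pkp3 at 1.05 down to Evpl at 0.205 and Dsc2 at 0.0771. No neighbours in this order overlapped between their 2 libraries. The control shRNA cells had the same order, with Dsp at 33.3 and Ppl at 32.5 FPKM next to each other. Their libraries nearly touched, the lower Dsp library being at 32.592 and the higher Ppl library at 32.588 FPKM. The cadherins of the stratified epidermis were nearly silent, with Dsc1, Dsc3, Dsg1a, Dsg1b, Dsg1c and Dsg4 at 0.0470 FPKM or lower in all 18 libraries and Dsg3 between 0.00409 and 0.270. Desmocollin 2 was itself listed at 0 in 10 of the 12 shRNA libraries, so that of the usual simple-epithelium cadherin pair only Dsg2 was measured at a level that could be tested.

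**Figure D1:**
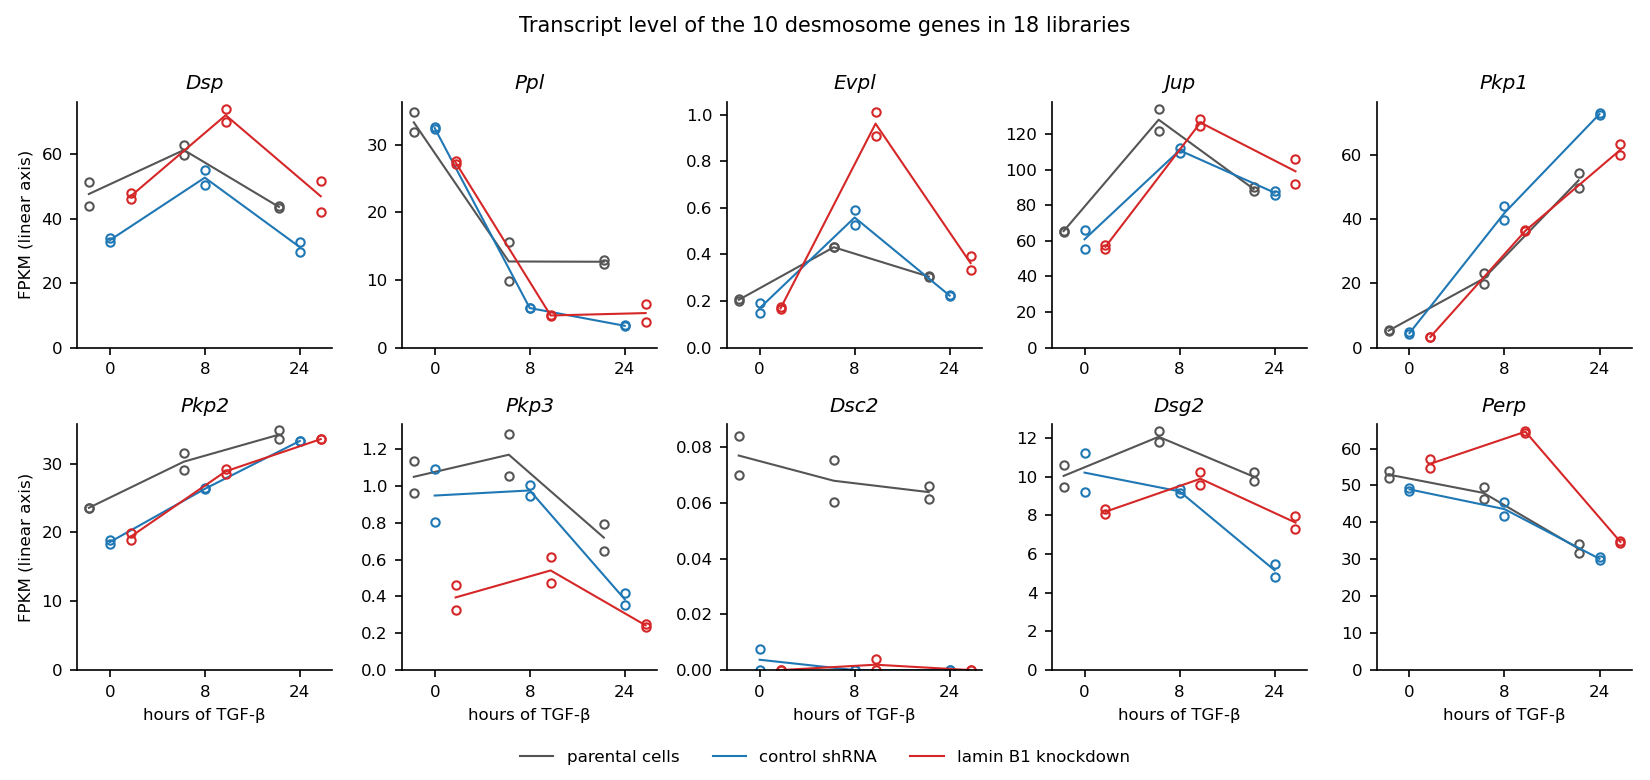
Level of each of the 10 desmosome genes in FPKM (linear vertical axis from 0, a separate scale per gene) against hours of TGF-β, with 1 point per library and lines through the means of 2 libraries for parental (gray), control shRNA (blue) and lamin B1 KD cells (red). Pkp1 rises from 3.25 to 5.50 FPKM untreated to 49.7 to 73.0 at 24 h and Ppl falls from 27.2 to 34.8 to 3.17 to 12.997, while Dsp peaks at 8 h in every arm.

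Lamin B1 peaks covered the start sites of Ppl, Jup and Perp in untreated cells and at 8 h, and their promoters are printed because the peak data bear on them. Each line gives the 270 bases before the annotated start and the first 30 bases from it, read 5′ to 3′ on the gene's strand from the mm9 genome. Capitals mark 3 motifs searched on both strands: the E2-box CACCTG (the sequence bound by the EMT repressors of the Snail and Zeb families), the AP-1 site TGANTCA and the GC box GGGCGG (bound by Sp1-type factors). The stretches are chr16:5132545-5132844 on the minus strand for Ppl, chr11:100259048-100259347 on the minus strand for Jup and chr10:18564607-18564906 on the plus strand for Perp.
Ppl: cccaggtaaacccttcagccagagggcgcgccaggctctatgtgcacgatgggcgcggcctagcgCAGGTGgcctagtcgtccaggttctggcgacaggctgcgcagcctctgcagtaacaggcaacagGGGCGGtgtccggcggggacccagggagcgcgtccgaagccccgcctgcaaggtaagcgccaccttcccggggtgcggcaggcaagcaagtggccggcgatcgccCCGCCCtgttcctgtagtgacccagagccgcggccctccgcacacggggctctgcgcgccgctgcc
Jup: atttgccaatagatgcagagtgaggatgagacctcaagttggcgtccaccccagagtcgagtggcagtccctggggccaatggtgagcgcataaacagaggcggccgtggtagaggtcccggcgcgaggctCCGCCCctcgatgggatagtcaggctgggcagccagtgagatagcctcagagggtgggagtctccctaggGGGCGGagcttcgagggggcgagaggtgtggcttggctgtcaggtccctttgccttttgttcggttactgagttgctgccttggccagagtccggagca
Perp: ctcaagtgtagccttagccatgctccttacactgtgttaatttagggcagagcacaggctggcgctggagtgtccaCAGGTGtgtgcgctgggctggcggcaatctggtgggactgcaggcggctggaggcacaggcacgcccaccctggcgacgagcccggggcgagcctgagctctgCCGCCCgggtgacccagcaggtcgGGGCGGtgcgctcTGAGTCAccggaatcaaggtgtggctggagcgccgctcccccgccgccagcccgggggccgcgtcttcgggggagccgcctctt
The E2-box was in the promoters of Ppl and Perp and not in that of Jup, and it was in 20.0% of 22375 promoters of the same length. Counted with the start site as 0, its first base lay at −205 in Ppl and −194 in Perp, on the strand opposite to the gene in both. An AP-1 site was in the Perp promoter, with its first base at −54, and in 7.07% of all promoters. The GC box was in all 3, with 2 copies in each, and in 42.7% of all promoters. GC content was 71% for Ppl, 61.7% for Jup and 69% for Perp, against a median of 54.3% over the 22375 promoters. Such matches describe letters and are not evidence of binding.

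The state of the libraries was checked on genes outside the desmosome. Replicates correlated at r = 0.983 to 0.994 over genes on the log2 scale. Depth relative to the first library of each table, estimated from ratios of the lowest FPKM values above 0, ran from 79.2% to 116%. The absolute depth of FPKM values is unknown. The mesenchymal gene Fn1 (fibronectin) was 1.70 and 8.42 times its untreated mean at 8 and 24 h in parental cells and 2.48 and 15.4 times in control cells. The EMT markers Cdh2 (N-cadherin) and Vim (vimentin) stood at 1.99 and 0.865 times their untreated means at 24 h in parental cells. Luminal keratins were abundant (Krt8 2024 to 3938 FPKM, Krt18 1720 to 3324), while among the 6 mammary epithelial markers Epcam reached at most 3.15 FPKM and Cldn3 was listed at 0 in 5 of 6 parental and 11 of 12 shRNA libraries. The 4 leukocyte markers summed to at most 0.143 FPKM. The 5 fibroblast markers summed to 3.57 to 4.27 FPKM in untreated and 11.4 to 12.04 in 24 h parental cells. In control cells they summed to 0.269 to 0.407 and 7.68 to 7.87, with Thy1 listed at 0 in all 12 shRNA libraries. Col1a1 had the widest range of this list, 2.12 to 8.57 FPKM in parental and 0.188 to 6.97 in shRNA libraries. Pdgfrb, Dcn and Pdgfra reached at most 1.83, 1.52 and 0.683 FPKM. The 5 basal markers summed to 4.40 to 4.92 FPKM in untreated, 27.7 to 27.8 in 8 h and 3.25 to 3.39 in 24 h control cells, with Trp63 at 0.0520 FPKM or lower in all libraries. The untreated and 8 h sums were mostly Krt14, so they describe that gene and not the list. Krt5 and Myh11 reached at most 0.285 and 0.123 FPKM. In RNA from bulk cultures, fewer cells of a type and less RNA per cell cannot be told apart, and the part of these marker lists in the desmosome values was not tested.

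The first comparison asks how the desmosome genes move when parental cells are exposed to TGF-β. The members did not move as one. Of the 4 armadillo proteins Jup, Pkp1 and Pkp2 rose at both times, with Pkp1 (plakophilin 1) going to 4.09 times its untreated mean at 8 h and 9.92 times at 24 h, while Ppl (periplakin) fell to 0.382 and 0.381 times. Of the 8 members that passed the filter on low values (at least 1 FPKM in 2 libraries, Evpl and Dsc2 failing it), 5 rose and 1 fell at 8 h, against 22.4% of 11309 genes called higher and 32.1% called lower (54.5% in either direction). At 24 h 3 rose and 3 fell, against 33.4% and 37.1% (70.5%). A call was an adjusted p under 0.05 in limma on log2(FPKM + 1), a scale that understates changes of low genes. The median log2 difference of the 8 members was 0.30 at 8 h and −0.06 at 24 h, beside −0.05 and −0.02 over all genes tested. With so many genes called at both times, the member counts alone set the list apart little, and both times are compared with the same 2 untreated libraries.

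**Figure D2:**
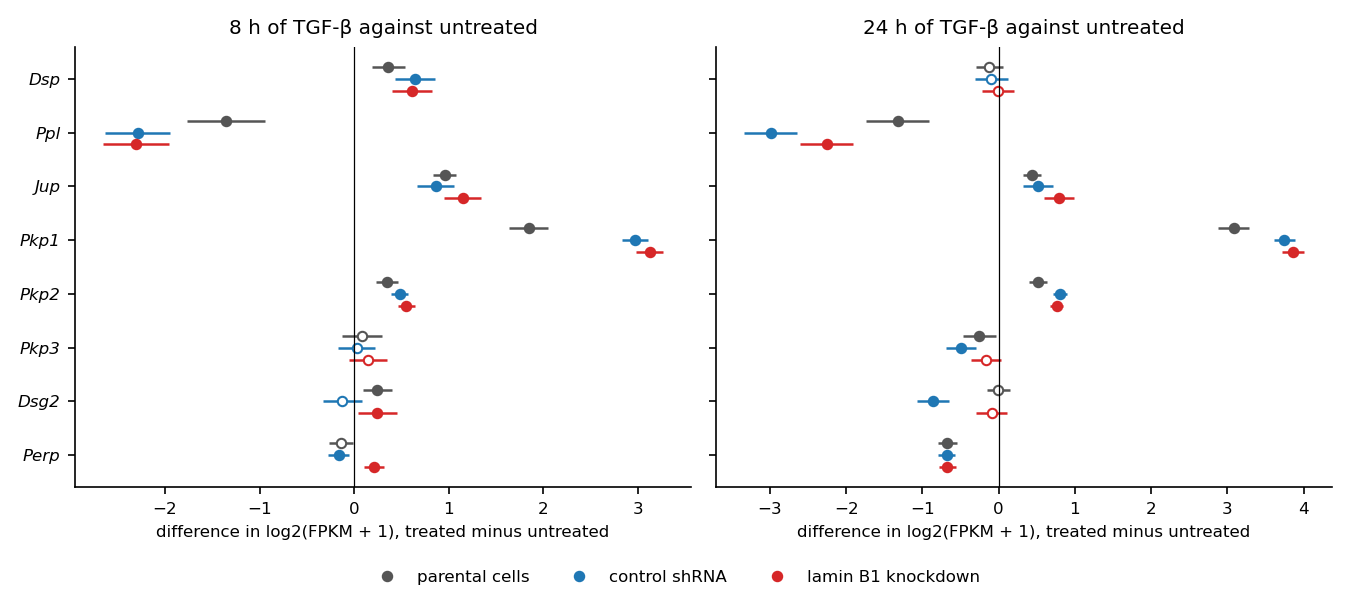
Log2 difference in FPKM + 1 between TGF-β-treated and untreated cells for the 8 tested desmosome genes at 8 and 24 h in each arm (limma estimates from 2 libraries per group, bars 95% intervals, filled points past an adjusted p of 0.05, open points not). On the horizontal axis Pkp1 lies farthest right and Ppl farthest left in every arm, and Dsp lies right of 0 at 8 h and close to 0 at 24 h.

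Among the plakins, Dsp encodes desmoplakin, the obligate link between plaque and filaments. Its level was 43.8 and 51.5 FPKM in the untreated parental libraries, 59.7 and 62.8 at 8 h and 43.3 and 43.9 at 24 h. The 8 h libraries lay above both other groups, and the untreated and 24 h libraries overlapped. The rise at 8 h was 0.36 ± 0.07 on the log2 scale (SE, 2 libraries per group; limma adjusted p = 0.00556), the 24 h difference from untreated was −0.12 (adjusted p = 0.184), and Dsp fell by 0.48 from 8 to 24 h (adjusted p = 0.00167). Without the first untreated library the 24 h difference became −0.23 with an adjusted p of 0.0108. Dsp lies at chr13:38243197-38290446 on the plus strand and shares its start region with Gm10129 on the opposite strand, and reads from the pair may not be separated: the study describes its RNA-seq tracks as strand-specific, while the strand setting of the FPKM counting is not given in the sources used here.

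Ppl encodes periplakin, a plakin of the cell cortex that also reaches desmosomes and intermediate filaments (chr16:5086384-5132574, minus strand). It read 31.8 and 34.8 FPKM untreated, 9.85 and 15.6 at 8 h and 12.4 and 12.997 at 24 h. All treated libraries lay below both untreated ones, and the 8 and 24 h libraries overlapped. The differences were −1.35 ± 0.17 at 8 h (adjusted p = 0.000767) and −1.32 ± 0.17 at 24 h (adjusted p = 0.000410), the 114th and 435th largest falls of the 11309 genes. The 24 h against 8 h difference was 0.03 (adjusted p = 0.904), but without the second 8 h library it was 0.34 with an adjusted p of 0.00684.

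Evpl, encoding envoplakin, the partner of periplakin in the cornified envelope (chr11:116081873-116099391, minus strand), stayed below 0.5 FPKM in parental cells. It read 0.200 and 0.209 FPKM untreated, 0.432 and 0.430 at 8 h and 0.307 and 0.302 at 24 h, so that the 3 groups did not overlap. In the fit without a filter on low values the difference was 0.25 at 8 h (adjusted p = 0.00176) and 0.11 at 24 h (adjusted p = 0.00666). Ppl made 42.0% and 40.3% of the summed plakin FPKM in the untreated libraries, 14.1% and 19.8% at 8 h and 22.1% and 22.7% at 24 h.

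Among the armadillo proteins, Jup encodes plakoglobin, which binds the desmosomal cadherins and is shared with adherens junctions (chr11:100230272-100259077, minus strand). It read 65.8 and 65.3 FPKM untreated, 134 and 122 at 8 h and 90.6 and 87.9 at 24 h. The 3 groups did not overlap and the 8 h group was highest. The rise was 0.96 ± 0.05 at 8 h (adjusted p = 3.54e-05) and 0.44 ± 0.05 at 24 h (adjusted p = 0.000223), and the level fell by 0.52 from 8 to 24 h (adjusted p = 0.000236).

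Pkp1 encodes plakophilin 1, which is best known from stratified epithelia, where it clusters and strengthens desmosomes (chr1:137767972-137815784, minus strand). It read 5.00 and 5.50 FPKM untreated, 23.2 and 19.7 at 8 h and 54.3 and 49.7 at 24 h. Each group lay wholly above the one before it. The rise was 1.84 ± 0.09 at 8 h (adjusted p = 3.04e-05) and 3.09 ± 0.09 at 24 h (adjusted p = 6.18e-07), the 53rd and 42nd largest of the 11309 genes.

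Pkp2 encodes plakophilin 2, the broadly expressed member of the family (chr16:16213411-16272805, plus strand). It read 23.6 in both untreated libraries, 31.6 and 29.0 FPKM at 8 h and 34.9 and 33.5 at 24 h. The groups did not overlap, and the rise was 0.35 ± 0.05 at 8 h (adjusted p = 0.00135) and 0.52 ± 0.05 at 24 h (adjusted p = 9.24e-05). The step from 8 to 24 h was 0.17 (adjusted p = 0.0273) and lost its call without the second 8 h library (0.11, adjusted p = 0.106), the first 24 h library (0.14, adjusted p = 0.1497) or the second (0.20, adjusted p = 0.0646).

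Pkp3 encodes plakophilin 3 (chr7:148264117-148276409, plus strand) and lay near the filter. It read 1.13 and 0.964 FPKM untreated, 1.28 and 1.06 at 8 h and 0.792 and 0.646 at 24 h. The 24 h libraries were lowest and the other groups overlapped. Its 24 h difference was −0.25 ± 0.09 (adjusted p = 0.0392), a call that was lost without either untreated library (−0.19, adjusted p = 0.190, and −0.31, adjusted p = 0.0570) and without either 24 h library (−0.31, adjusted p = 0.0550, and −0.19, adjusted p = 0.196). Its fall from 8 to 24 h was −0.33 (adjusted p = 0.0189), and this was lost without the first 8 h library (−0.26, adjusted p = 0.0722) or the second 24 h library (−0.27, adjusted p = 0.114).

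The balance of the plakophilins shifted with these changes. Pkp1 made 16.8% and 18.3% of the summed plakophilin FPKM in the untreated parental libraries, 41.4% and 39.6% at 8 h and 60.35% and 59.3% at 24 h, with the sum going from 29.7 and 30.03 to 90.0 and 83.9 FPKM. In control cells its share went from 17.6% and 19.75% to 61.6% and 59.4% at 8 h and 68.2% and 68.4% at 24 h, and in KD cells from 14.2% and 14.4% to 55.5% and 54.98% and then 65.2% and 63.9%. Pkp2 was the largest plakophilin in all untreated libraries and Pkp1 in all 24 h libraries. These shares restate the FPKM values and carry no test of their own.

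**Figure D3:**
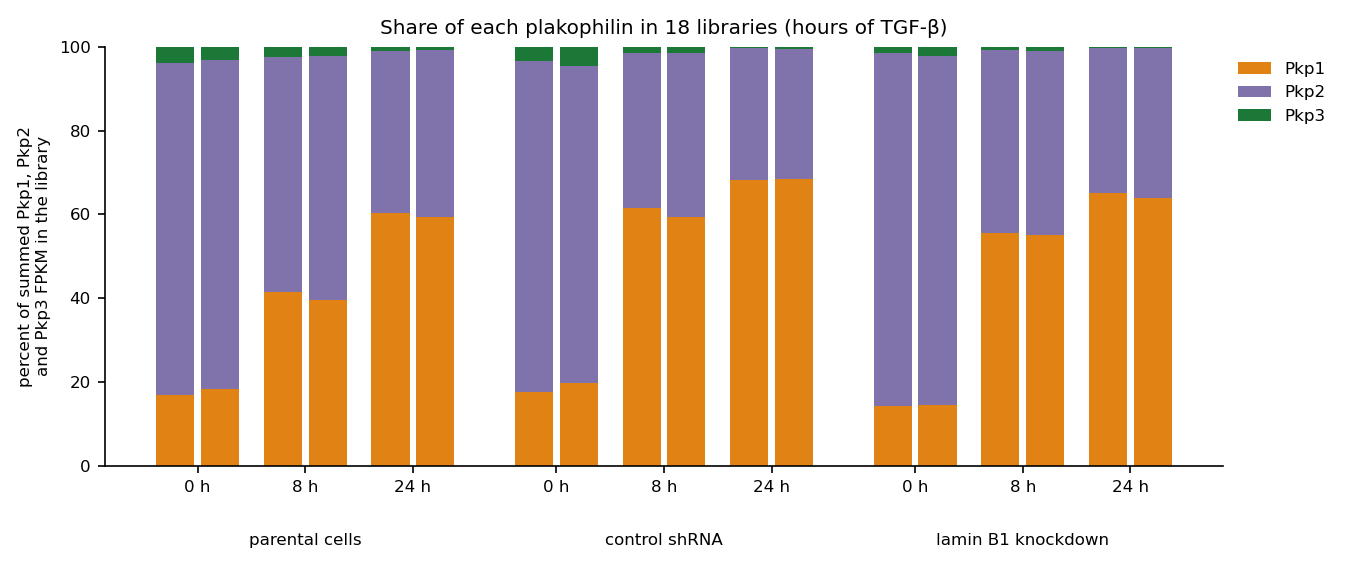
Share of Pkp1, Pkp2 and Pkp3 in the summed plakophilin FPKM (percent, stacked to 100) for each of the 18 libraries, grouped by arm and hours of TGF-β. The Pkp1 share grows from 14.2% to 19.75% in untreated libraries to 59.3% to 68.4% at 24 h.

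Of the cadherins, Dsg2 encodes desmoglein 2 (chr18:20716575-20763022, plus strand, overlapping Gm16090 on the opposite strand). It read 9.46 and 10.6 FPKM untreated, 11.8 and 12.3 at 8 h and 9.75 and 10.3 at 24 h, so that the 8 h group was highest and the others overlapped. The rise at 8 h was 0.24 ± 0.06 (adjusted p = 0.0169) and lost its call without the first untreated library (0.17, adjusted p = 0.0883) or the second 8 h library (0.21, adjusted p = 0.0567). The level fell by 0.25 from 8 to 24 h (adjusted p = 0.0167), a call lost without the second 8 h library (−0.22, adjusted p = 0.0567) or the first 24 h library (−0.21, adjusted p = 0.0997). Dsc2, encoding desmocollin 2 (chr18:20189134-20218055, minus strand), read 0.0842 and 0.07003 FPKM untreated, 0.0605 and 0.0756 at 8 h and 0.0663 and 0.0616 at 24 h, with the 8 h libraries overlapping both other groups and the 24 h libraries below the untreated ones.

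Perp encodes a tetraspan membrane protein of desmosomes that is also a target of p53 and p63 (chr10:18564877-18576879, plus strand). It read 53.8 and 52.1 FPKM untreated, 49.6 and 46.4 at 8 h and 31.7 and 34.1 at 24 h. The groups did not overlap and descended in time, with −0.14 at 8 h (adjusted p = 0.0572) and −0.67 ± 0.05 at 24 h (adjusted p = 2.95e-05). Without the first 8 h library the 8 h difference was −0.19 with an adjusted p of 0.0347. From 8 to 24 h, 2 members were called higher and 5 lower, against 27.7% and 24.0% of the genes (51.8% in either direction), with a member median of −0.29 beside 0.02 over all genes.

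The same treatment was given to cells carrying the control shRNA. The leading changes were again a rise of Pkp1, to 9.34 times its untreated mean at 8 h and 16.2 times at 24 h, and a fall of Ppl, to 0.180 and 0.0991 times. At 8 h 4 members rose and 2 fell, against 19.4% of 11450 genes called higher and 44.9% called lower (64.3% in either direction). At 24 h 3 rose and 4 fell, against 25.5% and 45.1% (70.7%). The member medians were 0.25 and −0.29, beside −0.14 and −0.13 over all genes. These downward medians of all genes came near 0 (−0.02 and −0.0035) once the libraries were brought to a common distribution by quantile normalization, and the share of calls that were higher went from 30.2% to 46.0% at 8 h and from 36.1% to 49.99% at 24 h. In KD cells the corresponding medians were −0.13 and −0.10, −0.03 and −0.0037 after quantile normalization, with 33.9% of calls higher against 46.0% at 8 h and 39.8% against 50.1% at 24 h. Quantile normalization forces a common distribution, so medians near 0 follow largely from the method and do not show the source of the shift. In control libraries the 10 highest genes held 16.9% and 14.5% of the summed FPKM untreated. They held 32.6% and 29.5% at 8 h and 40.4% and 29.9% at 24 h. Their part in the shift was not tested. Directions of small differences are relative to that shift.

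Pkp1 in the control cells read 4.21 and 4.76 FPKM untreated, 44.0 and 39.7 at 8 h and 72.3 and 73.0 at 24 h. Its log2 rise was 2.97 ± 0.06 at 8 h (adjusted p = 6.41e-09) and 3.75 ± 0.06 at 24 h (adjusted p = 7.47e-10), the 49th and 44th largest of the 11450 genes. Ppl read 32.4 and 32.6 FPKM untreated, 5.83 and 5.87 at 8 h and 3.17 and 3.26 at 24 h. It fell by 2.29 at 8 h (SE 0.15, adjusted p = 2.97e-06) and by 2.99 at 24 h (SE 0.15, adjusted p = 2.97e-07), the 69th and 73rd largest falls. No treated library of either gene came near an untreated one.

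Dsp in control cells read 33.9 and 32.6 FPKM untreated, 55.1 and 50.3 at 8 h and 29.5 and 32.7 at 24 h, high at 8 h only. Its difference was 0.65 ± 0.09 at 8 h (adjusted p = 0.000309) and −0.09 at 24 h (adjusted p = 0.388). Jup read 66.3 and 55.6 FPKM untreated, 113 and 109 at 8 h and 86.0 and 88.3 at 24 h. Both treated groups of Jup were above untreated, by 0.86 ± 0.09 (adjusted p = 3.35e-05) and 0.51 ± 0.09 (adjusted p = 0.000570). Pkp2 read 18.9 and 18.3 FPKM untreated, 26.4 and 26.3 at 8 h and 33.3 in both 24 h libraries, rising by 0.48 ± 0.04 (adjusted p = 1.00e-05) and 0.81 ± 0.04 (adjusted p = 2.24e-07). The 3 groups of Pkp2 did not overlap.

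The members that were lower at 24 h in control cells were Ppl, Pkp3, Dsg2 and Perp. Dsg2 read 11.2 and 9.21 FPKM untreated, 9.14 and 9.34 at 8 h and 4.83 and 5.49 at 24 h, a 24 h difference of −0.86 ± 0.09 (adjusted p = 2.88e-05). Perp read 48.5 and 49.4 FPKM untreated, 41.6 and 45.6 at 8 h and 29.7 and 30.5 at 24 h. Its difference was −0.16 ± 0.05 at 8 h (adjusted p = 0.0134) and −0.68 ± 0.05 at 24 h (adjusted p = 1.93e-06). The 8 h call of Perp was lost after quantile normalization (−0.06, adjusted p = 0.277), without the second untreated library (−0.15, adjusted p = 0.0533) and without the first 8 h library (−0.10, adjusted p = 0.108). Dsg2 at 8 h differed by −0.12 (adjusted p = 0.253), and by −0.25 without the second untreated library (adjusted p = 0.0290).

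Pkp3 in control cells read 0.804 and 1.09 FPKM untreated, 1.00 and 0.947 at 8 h and 0.351 and 0.417 at 24 h, so that the 24 h libraries were lowest, by −0.49 ± 0.09 (adjusted p = 0.000880). Evpl read 0.191 and 0.146 FPKM untreated, 0.590 and 0.526 at 8 h and 0.225 and 0.2204 at 24 h, highest at 8 h. Without a filter its 8 h difference was 0.41 (adjusted p = 6.48e-05) and its 24 h difference 0.07 (adjusted p = 0.181). Dsc2 was listed at 0 in 5 of these 6 libraries and at 0.00743 FPKM in the other.

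In KD cells 6 members rose and 1 fell at 8 h, against 23.0% and 44.8% of the genes (67.8% in either direction), and 3 rose and 2 fell at 24 h, against 28.6% and 43.3% (71.9%). The member medians were 0.40 and −0.05, beside −0.13 and −0.10 over all genes. Pkp1 read 3.34 and 3.25 FPKM untreated, 36.2 and 36.5 at 8 h and 63.2 and 59.9 at 24 h, a rise of 3.12 ± 0.06 (adjusted p = 3.85e-09) and 3.86 ± 0.06 (adjusted p = 5.74e-10). Ppl read 27.6 and 27.2 FPKM untreated, 4.75 and 4.74 at 8 h and 3.82 and 6.38 at 24 h, a difference of −2.31 ± 0.15 (adjusted p = 2.11e-06) and −2.25 ± 0.15 (adjusted p = 1.56e-06). The replicates of the 24 h KD group stood apart for Ppl, and they also differed for Lmnb1 (4.37 and 7.52 FPKM) and Fn1 (415 and 942). Without the first of them the 24 h difference of Ppl was −1.94 and without the second −2.56.

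Jup in KD cells read 58.0 and 55.4 FPKM untreated, 125 and 129 at 8 h and 92.1 and 106 at 24 h, higher by 1.15 ± 0.09 (adjusted p = 4.44e-06) and 0.79 ± 0.09 (adjusted p = 3.43e-05). Pkp2 read 19.9 and 18.9 FPKM untreated, 28.5 and 29.3 at 8 h and 33.5 and 33.6 at 24 h, higher by 0.55 ± 0.04 (adjusted p = 3.24e-06) and 0.76 ± 0.04 (adjusted p = 2.74e-07). The 3 groups of either gene did not overlap. Dsp read 47.8 and 46.0 FPKM untreated, 74.0 and 70.1 at 8 h and 42.1 and 51.7 at 24 h, a rise of 0.61 ± 0.09 at 8 h (adjusted p = 0.000381) and a difference of −0.01 at 24 h (adjusted p = 0.946). The untreated and 24 h libraries of Dsp overlapped.

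Perp in KD cells read 57.2 and 54.6 FPKM untreated, 64.9 and 64.3 at 8 h and 35.1 and 34.4 at 24 h. Here the 8 h libraries were the highest, by 0.21 ± 0.05 (adjusted p = 0.00408), and the 24 h libraries the lowest, by −0.67 ± 0.05 (adjusted p = 1.97e-06). Dsg2 read 8.31 and 8.07 FPKM untreated, 10.2 and 9.55 at 8 h and 7.28 and 7.97 at 24 h. Its 8 h difference was 0.24 ± 0.09 (adjusted p = 0.0372), which missed the threshold without any 1 of the 4 libraries compared (0.20 to 0.29, adjusted p from 0.0605 without the second 8 h library through 0.0904 and 0.135 without the first and second untreated library to 0.171 without the first 8 h library), and its 24 h difference was −0.09 (adjusted p = 0.376).

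Pkp3 and Evpl stayed at 1.01 FPKM or lower in KD cells. Pkp3 read 0.329 and 0.460 FPKM untreated, 0.470 and 0.611 at 8 h and 0.235 and 0.251 at 24 h, with differences of 0.14 (adjusted p = 0.173) and −0.16 (adjusted p = 0.120). Evpl read 0.164 and 0.173 FPKM untreated, 0.910 and 1.01 at 8 h and 0.331 and 0.394 at 24 h. Without a filter the Evpl rise was 0.75 at 8 h (adjusted p = 2.65e-06) and 0.22 at 24 h (adjusted p = 0.00119), and its 3 groups did not overlap. Dsc2 was listed at 0 in 5 of the 6 KD libraries and at 0.00387 FPKM in the other.

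The next comparison set KD against control cells at each time, to see which desmosome genes differ when lamin B1 is depleted. The targeted gene Lmnb1 read 29.2 and 36.5 FPKM in untreated control and 9.01 and 9.27 in untreated KD cells, 32.8 and 32.1 against 7.79 and 8.14 at 8 h, and 18.4 and 17.9 against 4.37 and 7.52 at 24 h. No KD library overlapped a control library of the same time, and the ratio of means was 0.278, 0.245 and 0.328 (adjusted p = 0.000573, 0.000189 and 0.000901). Dsp was higher in KD cells at all 3 times, at 1.41, 1.37 and 1.51 times the control mean, as was Perp at 1.14, 1.48 and 1.15 times, while Pkp1 was lower at 0.734, 0.867 and 0.847 times. At 0 h 2 members were higher and 2 lower, against 10.6% and 9.09% of the genes (19.7% in either direction). At 8 h it was 3 and 2, against 19.3% and 16.5% (35.8%), and at 24 h 4 and 1, against 16.8% and 11.5% (28.3%). The member medians were −0.17, 0.11 and 0.19, beside −0.01, 0.01 and 0.02 over all genes. The arms differ by 1 shRNA each, so that the effect of lamin B1 loss and other effects of either shRNA cannot be told apart. Separately normalized parental means of Dsp were 47.6, 61.2 and 43.6 FPKM at 0, 8 and 24 h. The control means were 33.3, 52.7 and 31.1 and the KD means 46.9, 72.0 and 46.9. Which shRNA arm departed from parental cells was not tested.

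**Figure D4:**
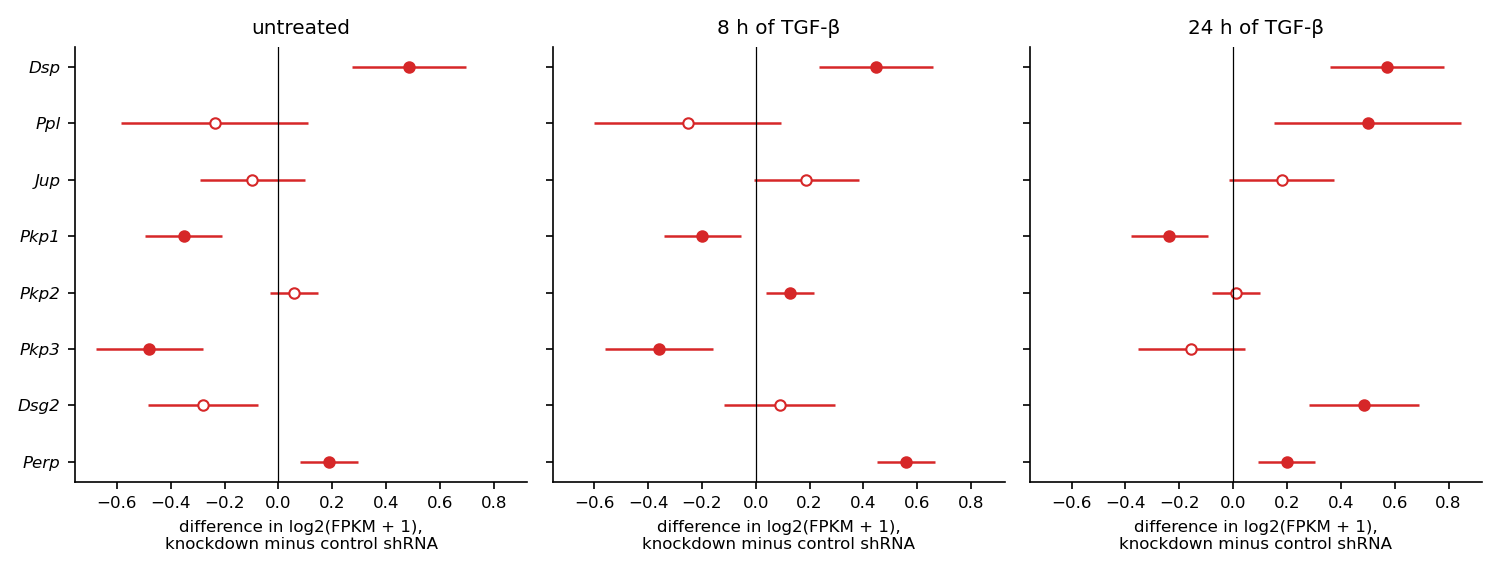
Log2 difference in FPKM + 1 between lamin B1 KD and control shRNA cells for the 8 tested desmosome genes, untreated and after 8 and 24 h of TGF-β (limma estimates from 2 libraries per group, bars 95% intervals, filled points past an adjusted p of 0.05). Dsp and Perp lie right of 0 and Pkp1 left of 0 in all 3 panels, and Ppl and Dsg2 lie right of 0 at 24 h.

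The Dsp difference was 0.48 ± 0.09 untreated (adjusted p = 0.00903), 0.45 ± 0.09 at 8 h (adjusted p = 0.00669) and 0.57 ± 0.09 at 24 h (adjusted p = 0.00329). The KD libraries lay above the control libraries of the same time without overlap. The untreated call was lost without the first KD library (0.46, adjusted p = 0.0699) and the 8 h call without the second control library (0.38, adjusted p = 0.0545), while the 24 h call was lost only in the fit restricted to the groups compared (adjusted p = 0.0759) or when a 2-fold change was required. The Perp difference was 0.19 ± 0.05 untreated (adjusted p = 0.0259), 0.56 ± 0.05 at 8 h (adjusted p = 0.000110) and 0.20 ± 0.05 at 24 h (adjusted p = 0.0156). The 8 h difference of Perp kept its call in every alternative but the one requiring a 2-fold change. Its untreated call was lost without the first or second control library (adjusted p = 0.0702 and 0.0553) or the first or second KD library (0.169 and 0.0712), and its 24 h call without the first or second control library (0.106 and 0.0601), and both in the fit of only the groups compared (0.0772 and 0.0735).

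Pkp1 differed by −0.35 ± 0.06 untreated (adjusted p = 0.00651), −0.20 ± 0.06 at 8 h (adjusted p = 0.0360) and −0.24 ± 0.06 at 24 h (adjusted p = 0.0231). Control libraries were higher at each time without overlap, at 4.21 and 4.76 against 3.34 and 3.25 FPKM untreated. The untreated call was lost without the second KD library (adjusted p = 0.0530) and in the fit of only the groups compared (0.0669). The 8 h call was lost without the first control library (0.231) or the first or second KD library (0.135 and 0.117), with no filter (0.0585) and with quantile normalization (0.0558). The 24 h call was lost without the first or second control library (0.102 and 0.111) or the second KD library (0.0821), and in the fit of only the groups compared (0.0628).

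Pkp3 was 0.416 times the control mean untreated (−0.48 ± 0.09, adjusted p = 0.00732) and 0.555 times at 8 h (−0.36 ± 0.09, adjusted p = 0.0132), at levels of 1.09 FPKM or lower. Its untreated call was lost without the first KD library (adjusted p = 0.0664) or in the fit of only the groups compared (0.0658), and its 8 h call without the first or second control library (0.0737 and 0.0539) or the first KD library (0.0913). At 24 h it differed by −0.15 (adjusted p = 0.213). Pkp2 differed by 0.13 ± 0.04 at 8 h (adjusted p = 0.0324), a call lost without the first or second control library (0.112 and 0.132) or the first or second KD library (0.0781 and 0.168) and with quantile normalization (0.0528), and by 0.06 untreated (adjusted p = 0.347) and 0.01 at 24 h (adjusted p = 0.862). Jup differed by −0.10, 0.19 and 0.18 (adjusted p = 0.470, 0.120 and 0.144), and by 0.28 at 24 h without the first KD library. In the fit of only the groups compared the 8 h difference of Jup was called (limma adjusted p = 0.00967).

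Dsg2 and Ppl were called at 24 h. Dsg2 was 1.48 times the control mean (0.49 ± 0.09, adjusted p = 0.00556), with KD libraries at 7.28 and 7.97 FPKM above control libraries at 4.83 and 5.49, and its adjusted p was 0.0522 without the first control library and 0.0628 in the fit of only the groups compared. Untreated it differed by −0.28 (adjusted p = 0.0592), or −0.41 without the second control library (adjusted p = 0.0173), and at 8 h by 0.09 (adjusted p = 0.481). Ppl was 1.59 times the control mean at 24 h (0.50 ± 0.15, adjusted p = 0.0395). That value rested on unequal KD libraries: it was 0.81 without the first (adjusted p = 3.79e-05) and 0.19 without the second (still called), and its call was lost without the first or second control library (0.156 and 0.128), with no filter (0.0794) and in the fit of only the groups compared (0.233). At the earlier times Ppl differed by −0.24 (adjusted p = 0.312) and −0.25 (adjusted p = 0.229). Its KD libraries lay below the control libraries at both of these times without overlap. In the fit of only the groups compared both differences were called (limma adjusted p = 0.0498 and 0.00773). Evpl, without a filter, was 1.72 times the control mean at 8 h (0.33, adjusted p = 0.00103) and 1.63 times at 24 h (0.16, adjusted p = 0.0264), with untreated libraries that overlapped.

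The last expression comparison tested whether the response to TGF-β itself differed between KD and control cells. Of the 8 members past the filter, a single one passed at each time, Perp at 8 h and Dsg2 at 24 h. This stood against 2.45% and 2.73% of genes called higher in KD, and no member was called lower, against 1.61% and 1.98%. In either direction 4.06% and 4.72% of genes were called. Perp fell by 0.16 at 8 h in control cells and rose by 0.21 in KD cells, a difference of 0.37 (95% interval 0.22 to 0.52, adjusted p = 0.0278). The call was lost without the first or second untreated KD library (adjusted p = 0.0809 and 0.126), the first or second 8 h control library (0.0898 and 0.0502) or the first or second 8 h KD library (0.1004 and 0.112), with differences between 0.31 and 0.43. In parental cells, fitted separately, Perp differed by −0.14 at 8 h and Dsg2 by −0.0034 at 24 h (limma adjusted p = 0.0572 and 0.967). A 24 h fall of Dsg2 was thus called in the control arm only. Dsg2 fell by 0.86 at 24 h in control cells and differed by −0.09 in KD cells, a difference of 0.77 (95% interval 0.48 to 1.06, adjusted p = 0.0181). Its call was lost without the first or second untreated KD library (0.0710 and 0.0863), without the first 24 h control library (0.0911) and in the fit of only the groups compared (0.0937), with differences between 0.69 and 0.79.

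For the other members the interval of the difference in response contained 0 or the adjusted p missed the threshold. At 8 h the 95% interval was −0.34 to 0.26 for Dsp, −0.51 to 0.47 for Ppl, −0.05 to 0.35 for Pkp1 and −0.05 to 0.20 for Pkp2. Dsg2 at 8 h differed by 0.37 (adjusted p = 0.143) and Jup by 0.29 (adjusted p = 0.223), and without the second untreated control library these were 0.50 (adjusted p = 0.0252) and 0.41 (adjusted p = 0.0400). At 24 h Ppl differed by 0.74 (95% interval 0.25 to 1.23, adjusted p = 0.0887), Pkp3 by 0.32 (adjusted p = 0.159) and Jup by 0.28 (adjusted p = 0.207). Without the first or second 24 h KD library the Ppl difference was 1.04 (adjusted p = 0.000143) or 0.43 (adjusted p = 0.00746), and Jup passed without the second untreated control library (0.40, adjusted p = 0.0426) or the first 24 h KD library (0.38, adjusted p = 0.0460). The number of members called ranged from 0 to 3 at either time when 1 library was left out. The member medians were 0.14 and 0.20, beside 0.02 and 0.03 over all genes.

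Other genes of the junctions and the filaments they hold give the surroundings. Of 12 further desmosome genes (the epidermal cadherins, Pkp4, Cdsn, Kazn, Pnn and Tchp), 4 were tested. In parental cells none rose at 8 or 24 h, against 22.4% and 33.4% of genes called higher. There 3 fell at 8 h and 2 at 24 h, against 32.1% and 37.1% called lower. In control cells none rose, against 19.4% and 25.5%, while 3 fell at 8 h and 4 at 24 h, against 44.9% and 45.1%. The largest falls were Cdsn (corneodesmosin) at 8 h, with −0.44 in parental and −0.72 in control cells, and at 24 h Pkp4 (p0071, a plakophilin relative of both junction types) with −0.44 in parental and Tchp (trichoplein, a keratin-binding protein) with −0.76 in control cells. In KD against control cells none was called untreated, against 19.7% of genes called in either direction. At 8 h 2 were lower and at 24 h 3, against 16.5% and 11.5% of genes. Pnn (pinin) stood at −0.32 at both times. Its 8 h call was lost without any one of the 4 libraries compared (adjusted p = 0.0553 to 0.145) and with no filter (0.0536). At 24 h its difference was −0.48 without the first KD library and −0.16 without the second, where the call was lost (adjusted p = 0.0983), as it was without either control library (0.162 and 0.0939), with no filter (0.0623) and in the fit of only the groups compared (0.182).

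Of 7 keratins, the filaments that desmosomes hold, 5 were tested. In parental cells 4 rose and 1 fell at 8 h, and 2 rose and 1 fell at 24 h, against 22.4% and 33.4% of genes called higher and 32.1% and 37.1% called lower. Krt19 fell most, with log2 differences of −1.22 and −3.98 in parental and −2.504 and −5.66 in control cells, while Krt14 rose by 2.01 at 8 h in parental cells and Krt7 by 2.73 and 2.89 in control cells. Of 6 hemidesmosome genes 5 were tested, and 3 rose at 8 h and 3 rose with 2 falling at 24 h in parental cells, against the same shares. Their largest changes were a rise of 0.55 for Cd151 at 8 h and of 0.63 for Dst at 24 h and a fall of 1.68 for Itga6 (integrin α6) at 24 h. In control cells 4 rose at 8 h, led by Plec (plectin) at 1.02, and 3 rose and 2 fell at 24 h, against 19.4% and 25.5% of genes called higher and 44.9% and 45.1% called lower. All 4 adherens junction genes were tested. Cdh1 (E-cadherin) fell with −0.37 and −1.504 in parental and −1.11 and −2.02 in control cells, and Ctnnd1 (p120 catenin) rose by 0.66 and 0.63 in parental cells. In KD against control cells Cdh1 was higher by 0.68 at 8 h and 0.94 at 24 h, and Itgb4 (integrin β4) by 0.51 and 0.62. Krt14 was lower by 1.03 untreated and higher by 0.54 at 24 h, a call lost in the fit of only the groups compared (adjusted p = 0.103) and without the first or second control library (0.0930 and 0.0622).

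Lamin B1 and accessibility at the 10 loci were read from the deposited peaks. A member was counted where a peak overlapped, by at least 1 bp, the span from 2500 bp before its start to its end in the mm9 annotation. Lamin B1 peaks lay at 4 members untreated (Ppl, Jup, Pkp2, Perp), 8 at 8 h (all but Dsp and Pkp2) and 4 at 24 h (Evpl, Pkp1, Pkp2, Dsg2), against 19.9%, 38.8% and 29.4% of 20994 genes. Within 500 bp of the start the counts were 3, 6 and 3, against 15.4%, 30.5% and 23.8%. Expressed genes carried more peaks: among genes of at least 1 FPKM, 4 of 8, 6 of 8 and 3 of 7 members had one, against 34.06%, 57.1% and 44.6%. The lists held 4645, 10484 and 7083 peaks, so that counts move with the length of the list, and a gene without a peak in a list was not shown to lack lamin B1.

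The loci fell into different time patterns. Ppl, Jup and Perp had a lamin B1 peak over the start untreated and at 8 h and none in their span at 24 h. The Ppl peak had a MACS score of 105 and a width of 1935 bp untreated and 88.9 and 1356 bp at 8 h, and at 24 h the nearest lamin B1 peak was 70765 bp away. The Jup peak scored 68.0 and 103, and the Perp peak 54.5 and 146. Of these genes Ppl had fallen at 8 h, Jup had risen and Perp differed by −0.14, so that the same peak times went with different expression.

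Pkp1 and Dsg2 had a lamin B1 peak over the start at 8 and 24 h and none untreated, with scores of 57.1 and 69.9 for Pkp1 and 59.4 and 63.3 for Dsg2. Pkp2 had a peak over an exon 12251 bp into the gene untreated and at 24 h (score 54.9 both times) and one over the start at 24 h (65.3). Dsc2 had a peak over the start at 8 h (73.7). In Evpl the peaks lay over exons, at scores of 124 and 69.2 at 8 h and 107 and 50.8 at 24 h, and in Pkp3 over an exon at 8 h (50.8). Several of these scores lie close to 50, the lowest in the lists. Dsp had no lamin B1 peak in its span at any time, and the nearest were 193530, 53179 and 156931 bp from its start.

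ATAC peaks lay at 4 members untreated (Dsp, Jup, Pkp2, Perp), 3 at 8 h (Jup, Pkp2, Dsc2) and 7 at 24 h (all but Evpl, Pkp3 and Dsg2), against 37.0%, 32.9% and 60.0% of the genes. Within 500 bp of the start the counts were 3, 1 and 5, against 30.6%, 25.0% and 47.1%. Among genes of at least 1 FPKM, 4 of 8, 2 of 8 and 6 of 7 members had one, against 65.8%, 56.98% and 93.9%. The 24 h list held 33811 peaks against 9782 and 10340, with a median score of 155 against 93.1 and 73.9, so the larger number at 24 h went with a longer list. A gene without an ATAC peak in a list was not shown to be closed.

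Jup had an ATAC peak over its start at all 3 times, with scores of 111, 85.4 and 240. Perp had one untreated (99.7) and at 24 h (277) and none at 8 h, the time of its lamin B1 peak with the highest score. The 8 h ATAC list had the lowest median score, and a link between these peaks was not tested. Pkp2 had an ATAC peak over its start untreated (51.1) and at 24 h (112) and an intron peak at all times (107, 75.8 and 486). Pkp1, the member with the largest rise, had no ATAC peak in its span untreated or at 8 h and one of score 58.2 over the start at 24 h. At Dsp an intron peak untreated (54.6) was followed by none at 8 h and by a peak over the start at 24 h (194), which also covered the start of Gm10129. Ppl, the member with the largest fall, had no ATAC peak in its span untreated or at 8 h, and at 24 h one of score 368 that ran from −5088 to −1483 bp relative to the start and one of 81.5 in an intron. The nearest peaks to the Ppl start at the earlier times lay 3368 bp (score 82.09) and 3243 bp (score 60.01) upstream, beyond the 2500 bp limit and within the stretch of the 24 h peak, so that the upstream part of this count depends on that limit. Dsc2 had an exon peak at 8 h (55.3) and 24 h (139). Evpl, Pkp3 and Dsg2 had none at any time, and the nearest to the Dsg2 start at 24 h lay 2754 bp away with a score of 380.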

How the data were processed

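RNA-seq, lamin B1 ChIP-seq and ATAC-seq of NMuMG cells were taken as deposited. Hi-C contact maps were not used here. The authors deposited gene expression as FPKM in 1 table for parental cells and 1 for shRNA cells. The submitters' processing notes name TopHat, Bowtie, Cufflinks and the mm9 genome, without roles, and whether the FPKM counting used strand is not given in the sources used here. The authors deposited peaks per library with a MACS score, called once per time (2 parallel ChIPs were mixed before sequencing). The shRNA columns were matched to samples through the column order stated in the labels and the parental columns by group only, and 0 columns stayed unmapped. Nothing says how separate the cultures of the RNA replicates were beyond their label as biological replicates, so p-values measure the spread between these samples.

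Tests were made on log2(FPKM + 1) with limma 3.58.1 in R 4.3.3, in 1 fit per table with all its libraries, for genes of at least 1 FPKM in at least 2 libraries, with Benjamini-Hochberg adjustment over all tested genes and a threshold of 0.05. The fit was also run on simulated data with independent noise per gene and changes planted in few genes. The tables here have far more genes called, and the outcome of that run is not reported here. The tables were normalized separately, so tests stay within a table. FPKM keeps no absolute depth, and the number of libraries limits the precision. Genes were placed by symbol in the GENCODE annotation of mm9 (20994 of the 23295 parental genes), and promoter sequences came from the mm9 genome, with Python 3.11.15, numpy 2.4.6 and pandas 2.3.3. Named genes are all members, the called genes of the other lists with the largest rise or fall per contrast, the checks Lmnb1, Fn1, Vim and Cdh2, and the 5 genes most like Dsp. Alternatives were a pseudocount of 0.1, no filter, quantile normalization, only the groups compared, a 2-fold minimum, the replicate number as a block, each library left out (a group left with 1 library is assumed to vary like the others), a MACS score of at least 100, lists of equal length, spans of 2500 or 500 bp around the start and peak midpoints. The members and lists were chosen with earlier results of these data known. Another check gene and the promoters of Pkp1 and Pkp2 are not reported here.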

Additional observations from a re-analysis of the deposited data

Results flagged for a closer look

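All results here are differences between the KD and the control response to TGF-β that passed the test of the difference itself (limma interaction term, log2 scale, 2 libraries per group), and for each the part of technical factors was not tested. For Perp at 8 h the KD response exceeded the control response by 0.37 (adjusted p = 0.0278), with group means that went from 48.9 to 43.6 FPKM in control and from 55.9 to 64.6 in KD cells. For Dsg2 at 24 h it did so by 0.77 (adjusted p = 0.0181), from 10.2 to 5.16 FPKM in control and from 8.19 to 7.63 in KD cells. In parental cells, normalized separately, the means went from 53.0 to 48.0 FPKM for Perp at 8 h and from 10.04 to 10.00 for Dsg2 at 24 h.

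Among the keratins, Krt14, the basal-type partner of keratin 5, differed by 0.995 at 8 h (adjusted p = 0.0283) and by 1.57 at 24 h (adjusted p = 0.00432). Its control means were 4.39, 27.3 and 1.34 FPKM at 0, 8 and 24 h and its KD means 1.63, 26.7 and 2.41. The 24 h difference of Krt14 kept its call in all 14 alternatives. The 8 h difference lost its call in 9 of 14, which include a 2-fold minimum and no filter (limma adjusted p = 0.0511). The others were removals of 1 library: the first untreated control, either untreated KD or either 8 h library of each arm. With these left out the difference lay between 0.84 and 1.15.

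Itgb4, integrin β4 of hemidesmosomes, differed by 0.38 at 8 h (adjusted p = 0.0272) and by 0.48 at 24 h (adjusted p = 0.00889), with control means of 36.0, 56.1 and 25.3 FPKM and KD means of 39.6, 80.3 and 39.4. Its calls were lost in 7 and 3 of 14 alternatives. Cdh1, E-cadherin of adherens junctions, differed by 0.81 at 24 h (adjusted p = 0.0246), with means that went from 114 to 27.2 FPKM in control and from 124 to 53.4 in KD cells, and lost its call in 7 of 14 alternatives. Dixon's test for a sample apart was not applied, since no group had 4 libraries.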

How the results depend on the processing

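Of the single-gene values under the alternatives, 1338 kept their direction and side of the threshold, 193 lost the call, 17 gained it and 25 changed sign, and of the counts 107 stayed within 1.5 times and 48 did not. The causes were not tested. Sign changes were confined to differences that had not been called. After quantile normalization they were Dsg2 in parental 24 h (0.0032), control 8 h (0.0100) and KD 24 h cells (0.049), Ppl in parental 24 h against 8 h (−0.011), Dsp in control and KD 24 h cells (0.038 and 0.042), Pkp2 in KD against control at 24 h (−0.021), and the difference in response of Pkp3 at 8 h (−0.11) and Perp at 24 h (−0.056).

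With 1 library left out the sign-changing values ranged from −0.079 to 0.072 (Dsg2, parental 24 h), −0.28 to 0.34 (Ppl, parental 24 h against 8 h), −0.082 to 0.13 (Pkp3, control 8 h), −0.25 to 0.0049 (Dsg2, control 8 h), −0.15 to 0.14 (Dsp, KD 24 h), −0.22 to 0.027 (Jup, KD against control, untreated), −0.10 to 0.026 and −0.059 to 0.23 (Dsp, difference in response at 8 and 24 h) and −0.021 to 0.043 (Perp, difference in response at 24 h). The number of members called ranged from 1 to 4 (KD against control, untreated), 2 to 3 (8 h), 1 to 6 (24 h) and 0 to 3 (difference in response, either time).

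With a 2-fold minimum the members called were 2, 2 and 1 (parental 8 h, 24 h, 24 h against 8 h), against 486, 1333 and 411 of 11309 genes. In control cells they were 2 and 2 (8 and 24 h), against 982 and 1670 of 11450 genes. In KD cells they were 3 and 2, against 1220 and 1768. In KD against control 0 members were called, against only 67, 92 and 61 genes (untreated, 8 and 24 h). In the responses it was 0 as well, against 30 and 53 genes (8 and 24 h). With only the groups compared the members called were 2 (KD against control, untreated, 732 genes), 0 (24 h, 710 genes) and 0 (difference in response at 24 h, 88 genes). After quantile normalization they were 3 (KD against control at 8 h, 4077 genes) and without a filter 2 (difference in response at 8 h, 355 genes). The member that joined Perp there was Evpl, with means going from 0.169 to 0.558 FPKM in control and from 0.168 to 0.961 in KD cells. At a MACS score of at least 100 lamin B1 members were 1, 3 and 1, against 4.52%, 16.1% and 12.3% of genes. ATAC members at that score were 2, 0 and 6 at 0, 8 and 24 h, against 20.4%, 9.06% and 54.0%. Lists of equal length gave 4 and 2 lamin B1 members at 8 and 24 h, against 21.12% and 21.15% of genes. They gave 3 ATAC members at 24 h, against 34.6%. ATAC at 8 h gave 1 within 500 or 2500 bp of the start, against 25.0% and 26.95%. Replicate numbers of the shRNA titles did not pair the samples throughout (r −0.135 to 0.368 over 15 pairs of groups, 2 of them over 0.1). The highest r was that of control with KD cells at 24 h, and a pairing within that time alone was not tested. With the replicate block the one member call lost was Dsg2 in KD 8 h cells (adjusted p = 0.0510, 6 members called instead of 7). Parental columns carry no replicate numbers, so no block was fitted there.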

Other observations

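Over the 18 libraries, on log2(FPKM + 1) with each table's mean subtracted, the 5 genes of 10843 whose pattern was most like that of Dsp were Slc37a1 (r = 0.93), Sh3tc1 (0.92), Slc17a4 (0.92), Hcfc2 (0.91) and Mtmr11 (0.91). None of the other members came close, with 0.62 for Jup, 0.60 for Perp, 0.58 for Dsg2, 0.11 for Pkp2, 0.10 for Pkp1, 0.07 for Pkp3 and −0.23 for Ppl. Among the members, Pkp1 with Pkp2 (0.97) and Ppl with Pkp1 and with Pkp2 (−0.95 in both) were the closest. The points share the treatment groups and the libraries, so these values describe the pattern and carry no p.

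The 4 measured cornified epidermis markers summed to 5.47 to 5.66 FPKM in untreated and 7.21 to 7.59 in 24 h parental cells, 4.05 to 4.15 and 10.5 to 12.1 in control cells, and 6.67 to 8.48 in 24 h KD cells. Ivl (involucrin, a cornified envelope protein cross-linked beside envoplakin and periplakin) reached 8.94 FPKM, with at most 1.28 for Lor (loricrin).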
